A study of Bos taurus with 48 samples.

Results

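The genes described here are those with far more reads in the mammary parenchyma of milk-restricted dairy calves than in their mammary fat pad and liver. Levels are in CPM, read counts scaled to a common total of reads assigned to genes in each library, and they are not divided by gene length. In restricted calves, 309 of 27607 genes had a mean of at least 5 CPM in parenchyma and at least 4 times the level of both fat pad and liver, with 0.1 CPM added to each mean. The 200 genes with the highest ratio of parenchyma to fat pad are the members. Of 6 identifiers that were to be left out of the choice, 0 met its conditions. Because the restricted libraries of the 3 tissues chose the members, their levels in restricted calves are a description. Comparisons that include restricted libraries are given as values and counts, and support nothing about diet.

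The study sequenced ribosomal RNA-depleted total RNA from parenchyma, fat pad and liver of cattle (Bos taurus) calves at 3 levels of milk feeding. Control calves received standard nutrition by the NRC estimate for dairy cattle, restricted calves were fed less milk replacer per day, and unlimited calves could drink it freely in 3 daily meals of 30 minutes. The labels name no genotype, breed or age, and do not say that the libraries of a group come from separate calves. In each tissue there were 6 restricted and 6 unlimited libraries. The control ration was represented by 3 parenchyma libraries, 4 fat pad libraries and 4 liver libraries.

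Mammary parenchyma of a calf is the branching tree of epithelial ducts, built of luminal and myoepithelial cells within connective tissue. It grows outward into the fat pad, a bed of adipose tissue, and milk feeding before weaning is known to affect its growth. The deposited tables give Ensembl identifiers alone, and 0 of them had a name in the RefSeq table at hand, so members are given by identifier and no function can be attached to them. For the same reason the labelled tissues could not be checked against marker genes of epithelium, adipocytes or hepatocytes.

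Depth, the total of gene counts in M (the metric prefix mega), ran from 5.59 to 24.2 M over the 47 libraries used, with a median of 13.8 M. Of the libraries labelled fat pad control, numbers 1, 2 and 21 stood apart from the other fat pad libraries for these genes. The titles of numbers 1 and 2 carry PAR, the series' abbreviation for parenchyma, while those of the labelled parenchyma libraries used here carry TP. The libraries labelled fat pad control are given library by library, and the tissue comparisons use the unlimited calves. In bulk tissue, fewer cells of a type and less RNA per cell cannot be told apart.

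In restricted parenchyma the mean level of the members ran from 5.03 to 4100 CPM, with a median of 40.9 CPM and quartiles of 12.4 and 126 CPM. Under 10 CPM lay 35 members, 105 lay from 10 to 100 CPM, 51 from 100 to 1000 CPM, and 9 at 1000 CPM or more. The median of the member means was 3.66 CPM in restricted fat pad and 0.715 CPM in restricted liver. Parenchyma exceeded fat pad by 5.69 to 66.7 times, with a median of 10.4, and liver by 4.02 to 5062 times, with a median of 48.1. The last gene taken had a ratio to fat pad of 5.69 and the first gene not taken a ratio of 5.68, so the list ends within a continuous range. A further 85 genes met both ratios but not the level, the highest of them at 4.96 CPM. Another 100 failed on the ratio to liver alone, the highest of them at 3.95. With 1 CPM added in place of 0.1, 171 of the 200 members were the same.

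**Figure D1:**
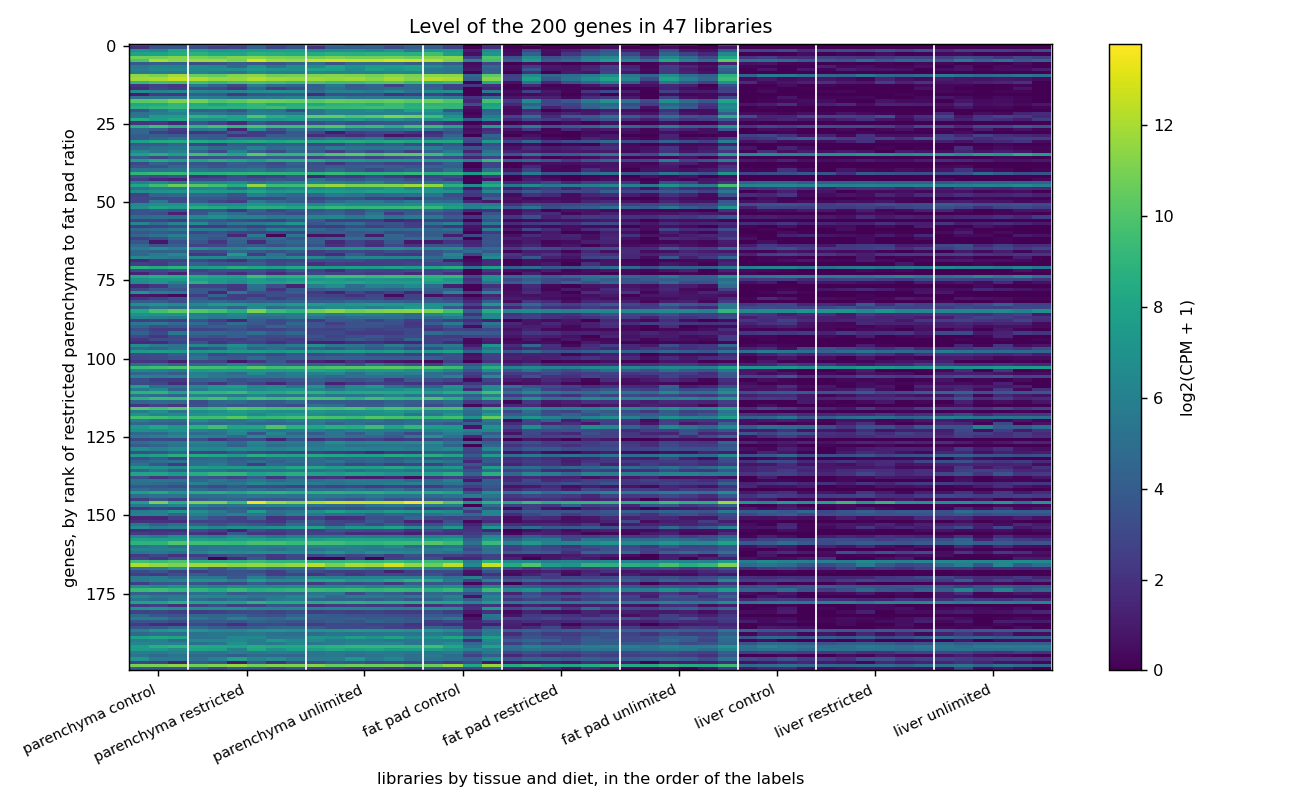
Levels of the 200 members (vertical, by rank of their restricted parenchyma to fat pad ratio) in the 47 libraries (horizontal, by tissue and diet, white lines between groups), as log2(CPM + 1). Parenchyma libraries of all 3 diets are high, liver libraries low, and the libraries labelled fat pad control 1, 2 and 21 are higher than the other fat pad libraries, with summed levels of 32304 to 50660 CPM.

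Unlimited calves, whose libraries had no part in the choice, showed the same order of tissues. The ratio of parenchyma to fat pad, taken from group means, had a median of 8.33 and ran from 2.03 to 47.6, and 179 of 200 members reached 4. The ratio to liver had a median of 30.4 and ran from 0.794 to 3741, and 186 members reached 4. Member by member, the ratio to fat pad in unlimited calves was a median of 0.761 times that in restricted calves, the group that chose the genes. The unlimited fat pad means include library 11, where the members summed to 16974 CPM against 2497 to 6091 CPM in the others. What part the choice or this library had in the lower ratio was not tested. In 168 members the lowest parenchyma library lay above the highest fat pad library, and in 187 above the highest liver library. The same separation was seen in 10.4% of the 15019 genes tested against fat pad and in 30.4% of the 14675 tested against liver.

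The edgeR test over all genes included 90 members that did not pass the count filter within fat pad alone, which leaves little room for their direction. The other 110 members also passed the count filter within fat pad alone. All 110 were higher in unlimited parenchyma than in unlimited fat pad, at an edgeR adjusted p under 0.05, with a median log2 fold change of 3.24. Over the 15019 genes tested, 30.3% were higher and 30.5% lower, 60.7% in all. Of the 12609 genes that passed the filter in both tissues, 32.1% were higher. Among the remaining members ENSBTAG00000010166, chosen for mention after its values were seen, was the exception below the threshold. It had no read in 3 of the 6 parenchyma libraries and 3.71, 5.02 and 6.92 CPM in the others, and its log2 fold change was 2.43 (edgeR adjusted p = 0.127).

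The pair of members with the lowest p is given by level, and that choice favours little spread beside the difference. ENSBTAG00000013779 had 119, 141 and 178 CPM as the lowest, median and highest value in unlimited parenchyma and 11.1, 14.9 and 28.2 CPM in unlimited fat pad. The groups did not overlap, and the log2 fold change was 3.50 ± 0.20 (SE, n = 6 each, edgeR adjusted p = 5.6e-09). ENSBTAG00000012809 had 19.4, 26.5 and 37.8 CPM in parenchyma and 2.52, 4.08 and 5.65 CPM in fat pad, again with no overlap. Its log2 fold change was 3.19 ± 0.19 (SE, edgeR adjusted p = 6.14e-09).

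Liver reads were too few for most members, and 73 passed the count filter within unlimited liver alone. Of these 73, 69 were higher in unlimited parenchyma than in unlimited liver and 0 lower by edgeR, with a median log2 fold change of 3.59. Over the 14675 genes tested, 32.4% were higher and 31.7% lower, 64.1% in all. Of the 11590 genes that passed in both tissues, 31.4% were higher. A further 125 members entered the test without passing the filter in liver, which leaves little room for their direction. The pair of lowest p came from these and is given by level alone. ENSBTAG00000037526 had 2476, 3304 and 3794 CPM as the lowest, median and highest in parenchyma and 0.395, 0.757 and 1.05 CPM in liver. ENSBTAG00000020105 had 361, 442 and 490 CPM in parenchyma and 0 to 0.291 CPM in the 6 liver libraries. A negative sign was fitted for ENSBTAG00000038326, at -0.64 (edgeR adjusted p = 0.236), and for ENSBTAG00000039727, at -0.04 (edgeR adjusted p = 0.932), both named after their values were seen. ENSBTAG00000038326 averaged 10.3 CPM in restricted parenchyma and 2.38 CPM in unlimited parenchyma, against 3.02 CPM in unlimited liver.

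**Figure D2:**
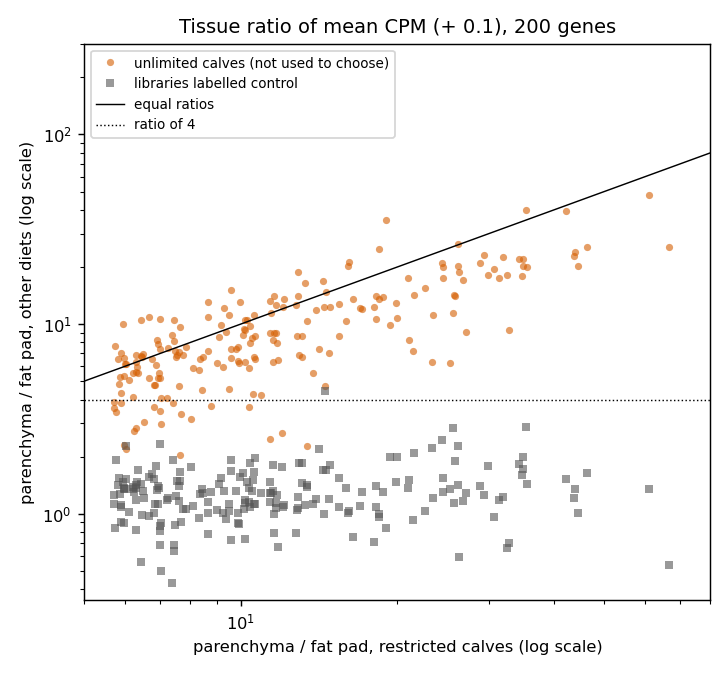
Ratio of mean parenchyma to mean fat pad level of the 200 members in unlimited calves (orange) and in the libraries labelled control (grey), against the ratio in restricted calves that chose them, on log axes. The solid line marks equal ratios and the dotted line a ratio of 4. The median is 8.33 in unlimited calves, with 179 members at 4 or above, and 1.28 with the labelled controls, with 1 member at 4 or above. The unlimited fat pad means include library 11, with a summed level of 16974 CPM against 2497 to 6091 CPM in the others.

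The share of each parenchyma library taken up by the members was then compared across diets. The 200 members together held 34871, 41708 and 45417 CPM in the 3 control libraries. In restricted parenchyma the lowest, median and highest sums were 37946, 42524 and 66151 CPM, and in unlimited parenchyma 52644, 57173 and 64512 CPM. All 6 unlimited libraries lay above the 3 controls. Of the restricted libraries, 5 lay within the range of the controls, at 37946 to 44027 CPM, and number 10 above every unlimited library. The mean sum was 58208 ± 4415 CPM (SD, n = 6) in unlimited calves, 5.82% of the gene counts, and 40665 ± 5350 CPM (SD, n = 3) in controls, 4.07%. The difference of 17543 CPM, a ratio of 1.43, had a two-sided exact permutation p of 0.0238, the smallest that 6 against 3 libraries can give. Plain CPM sets unlimited against control parenchyma 0.21 lower on the log2 scale than TMM scaling does (mean log2 factors of -0.03 and 0.18), and on TMM-scaled library sizes the difference was 23470 CPM. Leaving out 1 library at a time gave 14645 to 19919 CPM, with exact permutation p from 0.0357 to 0.0714, and with 1 control left out the smallest possible p is 0.0714.

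**Figure D3:**
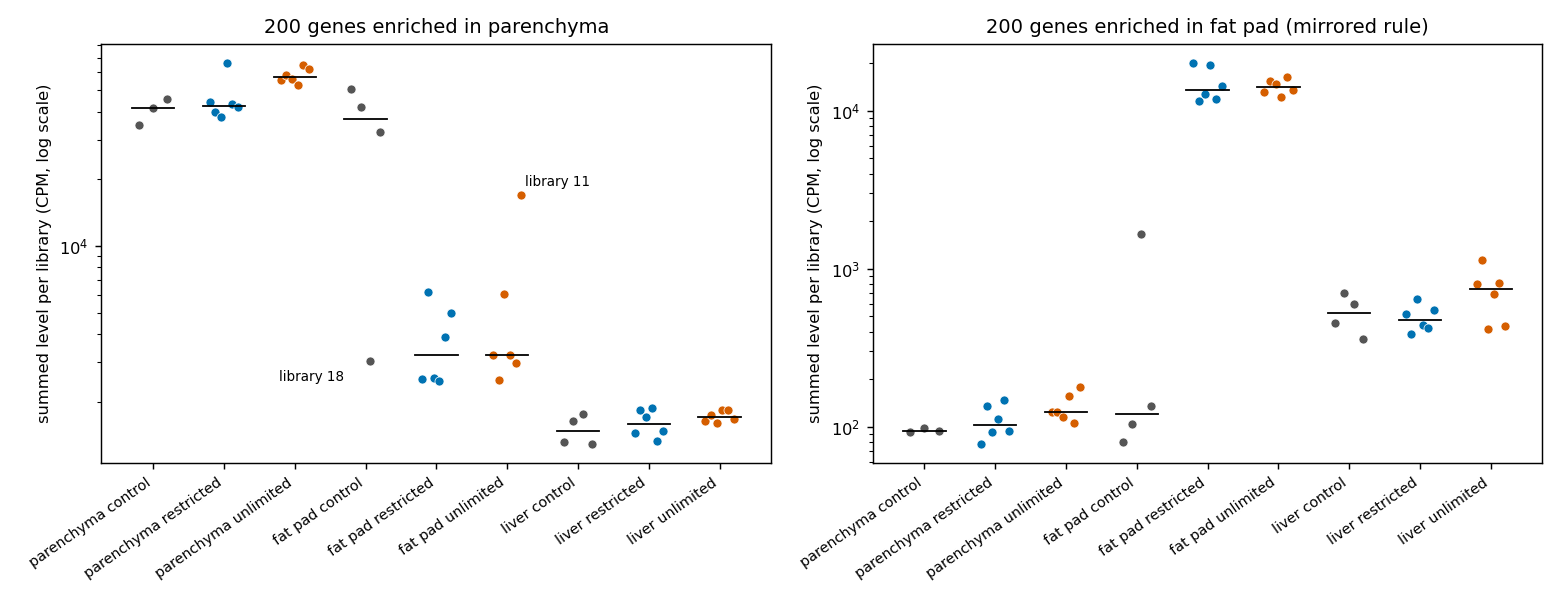
Summed level in every library (CPM on log axes, points, with medians as horizontal lines) by tissue and diet, for the 200 members on the left and for 200 fat pad genes chosen by the mirrored rule on the right. Unlimited parenchyma lies between 52644 and 64512 CPM, above all 3 parenchyma controls. Fat pad unlimited 11 stands at 16974 CPM, and the library labelled fat pad control 18 at 3041 CPM.

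Members with many reads made up most of this difference. The median member of a library overlapped between diets, with 35.2 to 36.7 CPM in control, 33.3 to 45.8 CPM in restricted and 31.5 to 41.1 CPM in unlimited parenchyma. The mean CPM was higher in unlimited than in control parenchyma for 106 members and lower for 94, while 125 had a positive log2 fold change after TMM scaling. The 10 members with the most reads in restricted parenchyma accounted for 74.2% of the difference in sums, although only 5 of these 10 were higher in unlimited calves. The other 190 members summed to 17570 to 20108 CPM in control and 22630 to 25197 CPM in unlimited libraries, which also did not overlap.

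One member, ENSBTAG00000015980, chosen after its values were seen, carried 40.5% of the difference, or 7108 CPM. Its level was 201, 2104 and 387 CPM in the control libraries and 5425, 6253, 7195, 7347, 7649 and 14167 CPM in unlimited parenchyma, with no overlap. In restricted parenchyma it ran from 641 to 11400 CPM, overlapping both other diets. The log2 fold change of unlimited against control was 3.34 ± 0.78 (SE, edgeR adjusted p = 0.0245). The means of unlimited and restricted parenchyma were 8006 ± 3128 and 3783 ± 3871 CPM (SD, n = 6 each). The member with the most reads in restricted parenchyma, ENSBTAG00000012855, had 994, 4261 and 2661 CPM in control parenchyma and 6512 to 8158 CPM in unlimited parenchyma, also without overlap. Its restricted libraries ran from 2161 to 8131 CPM.

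Gene by gene, unlimited feeding was set against the control ration in parenchyma, and neither group had chosen the members. Of the 200 members, 54 (27.0%) were higher in unlimited calves and 23 (11.5%) lower, and 123 did not pass the edgeR threshold. The background over 15119 genes was 7.42% higher and 5.02% lower, or 12.4% in either direction. The median log2 fold change of the members was 0.29 (quartiles -0.34 and 1.00), beside -0.01 (quartiles -0.29 and 0.32) for all genes. The 54 members that rose did so by a median of 1.38 on the log2 scale, and 39 of them by at least 2-fold. The 23 that fell had a median log2 fold change of -1.31, and 17 of them changed at least 2-fold. In 35 of the 200 members every unlimited library lay above every control in CPM, and in 24 below, where 5.05% of all genes tested lay wholly above and 17.7% wholly below.

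Calls in both directions came from members at every level. Of the 60 members at 100 CPM or more in restricted parenchyma, 23 rose and 3 fell, with a median log2 fold change of 0.50. Of the 105 members from 10 to 100 CPM, 23 rose and 19 fell, with a median of 0.13. Of the 35 below 10 CPM, 8 rose and 1 fell, also with a median of 0.13. Calls over all genes were not split by level, so these counts are not read as particular to the members.

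**Figure D4:**
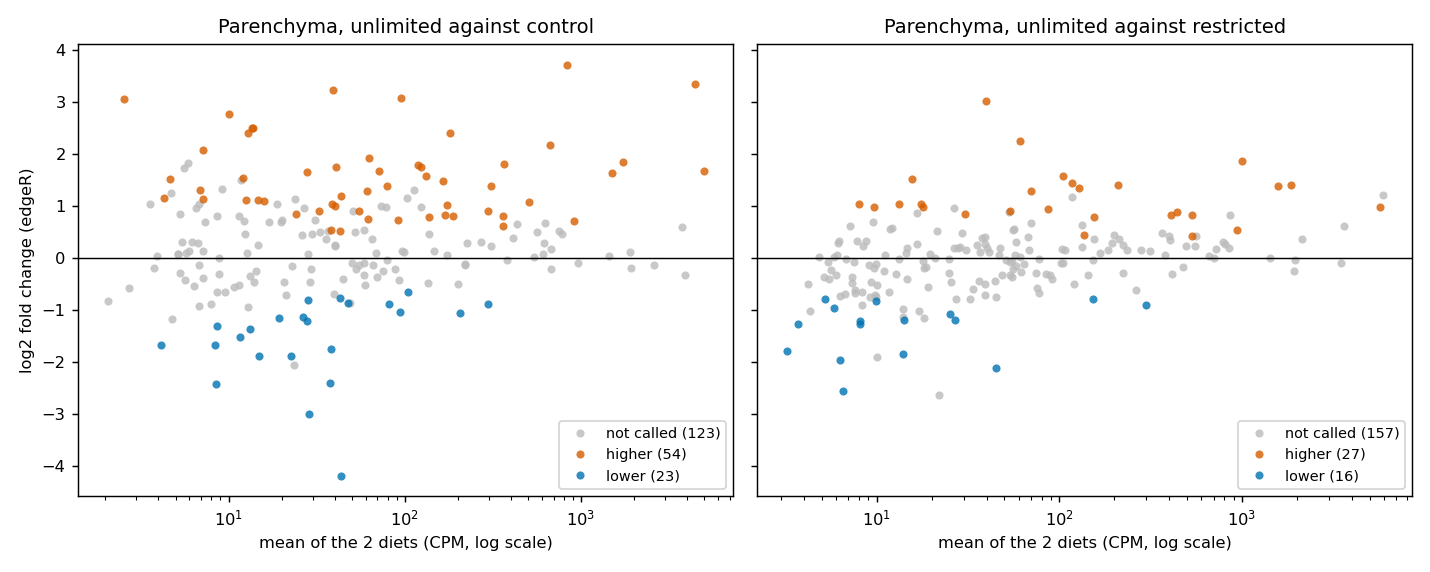
Log2 fold change (edgeR) of each of the 200 members in parenchyma against its mean level in both diets compared (CPM, log axis), with members past the threshold in colour. Unlimited against control (left) shows 54 members higher and 23 lower, and unlimited against restricted (right) 27 higher and 16 lower.

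The members named in each direction are the pair with the lowest p. ENSBTAG00000045602 had 3.44, 3.88 and 1.95 CPM in control parenchyma and 8.98, 10.9 and 14.2 CPM as the lowest, median and highest of unlimited parenchyma. All unlimited libraries were higher, and the log2 fold change was 2.08 ± 0.27 (SE, edgeR adjusted p = 0.00167). It had no read in any liver library. ENSBTAG00000000437 rose from 2.34, 6.62 and 4.77 CPM in control to 16.8, 21.6 and 32.1 CPM in unlimited parenchyma, and its log2 fold change was 2.48 ± 0.34 (SE, edgeR adjusted p = 0.00183). Restricted libraries ran from 2.27 to 13.0 CPM for the former and from 3.30 to 20.1 CPM for the latter, overlapping both other diets.

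ENSBTAG00000008240 fell furthest of all members, from 143, 57.4 and 47.8 CPM in control to 1.70, 3.66 and 6.62 CPM as the lowest, median and highest of unlimited parenchyma. The groups were far apart, and the log2 fold change was -4.19 ± 0.44 (SE, edgeR adjusted p = 0.00129). Restricted libraries ran from 1.92 to 47.6 CPM. ENSBTAG00000048972, the last member by ratio, had 13.3, 12.8 and 12.3 CPM in control parenchyma and at most 5.51 CPM in unlimited parenchyma. Its log2 fold change was -1.31 ± 0.20 (SE, edgeR adjusted p = 0.00259), and its restricted libraries, from 6.69 to 16.1 CPM, lay around the controls and above the unlimited libraries.

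**Figure D5:**
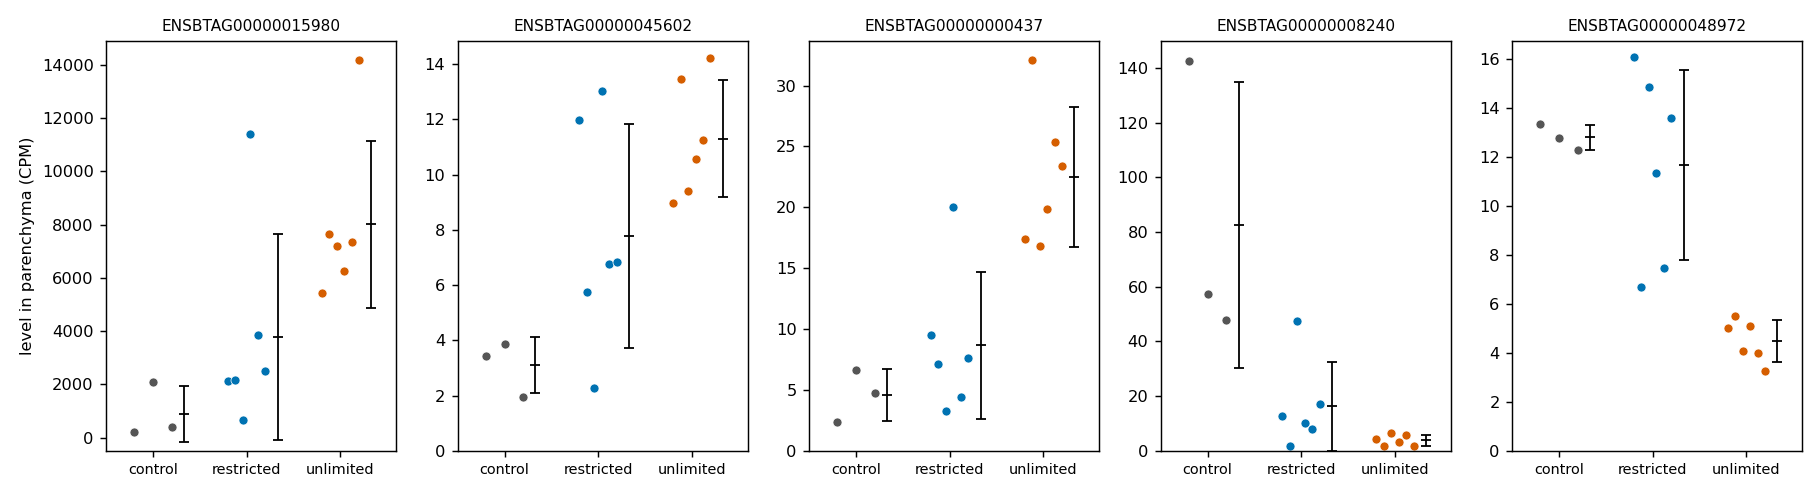
Levels (CPM) by library of ENSBTAG00000015980 and of the 4 members named for unlimited against control, in parenchyma by diet, with mean ± SD. The unlimited and control libraries do not overlap in any of the 5, and the restricted libraries are widely spread, as at 641 to 11400 CPM for ENSBTAG00000015980. The 4 were chosen for their low p between these diets and ENSBTAG00000015980 after its values were seen, which favours such separation.

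Fat pad genes were low in the parenchyma libraries, and their sum differed between the control and unlimited libraries. The 200 genes chosen by the mirrored rule, high in restricted fat pad and low in parenchyma and liver, summed to 11519 to 20072 CPM in restricted fat pad. In parenchyma they summed to 93.0, 98.0 and 93.5 CPM in the control libraries, 77.9 to 148 CPM in restricted and 106 to 180 CPM in unlimited libraries, so that unlimited lay above control. The median fat pad gene overlapped, with 0.0673 to 0.147 CPM in control, 0 to 0.169 CPM in restricted and 0.109 to 0.189 CPM in unlimited libraries. The difference in sums was not tested. With the fat pad gene sum as a covariate, chosen after the data were seen, 12 members were higher and 1 lower in unlimited than in control parenchyma. The share of all genes called in that fit was not computed, and the covariate itself separates these diets. The smaller counts are therefore not read as a trait of the members. ENSBTAG00000048972 then had an edgeR adjusted p of 0.111, with a log2 fold change of -1.21 in place of -1.31. The part of fat pad RNA in the result was not tested. Leaving out control 18 gave 33 members higher, and leaving out control 21 gave 15 lower, again without a share of all genes from the same fits.

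Unlimited and restricted parenchyma are set side by side as a description, since the restricted libraries chose the members and genes high there by chance are favoured. By the edgeR rule, 27 members (13.5%) were higher and 16 (8%) lower in unlimited parenchyma, beside 7.88% and 4.73% of 14117 genes, 12.6% in all, and nothing is read from these counts. Members had a median log2 fold change of 0.02, beside -0.02 for all genes. In 4 members all unlimited libraries lay above all restricted ones and in 9 below, beside 1.68% and 4.08% of all genes tested.

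The members named for this pair of diets are those of lowest p in each direction. ENSBTAG00000001497 had 243, 318 and 372 CPM as the lowest, median and highest of restricted parenchyma and 387, 517 and 569 CPM in unlimited parenchyma, without overlap. The controls, at 212, 402 and 493 CPM, spread over both. ENSBTAG00000034885 had 15.7 to 26.3 CPM in restricted and 29.8 to 46.5 CPM in unlimited parenchyma, a log2 difference of 0.84 ± 0.15 (SE). ENSBTAG00000053310 had 15.2, 22.5 and 32.5 CPM in restricted and 4.18, 5.54 and 7.13 CPM in unlimited parenchyma. Its log2 difference was -1.85 ± 0.21 (SE), and the controls held 18.8, 7.25 and 46.1 CPM. ENSBTAG00000017411 had 26.2 to 63.0 CPM in restricted and 11.6 to 17.8 CPM in unlimited parenchyma.

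These counts moved with single libraries. Without restricted 10, whose members summed to 66151 CPM, 41 were higher. Without restricted 4, 5 or 16 the count of higher members was 12, 13 or 13, and without unlimited 6, 11 or 15 it was 17, 15 or 14. The share of reads assigned to genes was 23.9% to 46.4% in restricted and 31.6% to 44.5% in unlimited parenchyma. With it as a covariate, 12 were higher and 10 lower, and with the fat pad gene sum, 8 and 9. No share of all genes was computed for these refits, so the changes are not read as particular to the members.

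Restricted and control parenchyma are likewise described without reading a diet effect, since the choice favours members high in restricted parenchyma. By the edgeR rule 5 members were higher and 2 lower in restricted calves, beside 0.228% and 0.101% of 14881 genes, 0.329% in all. An unadjusted p under 0.05 was found for 63 of the 200 members and for 14.5% of all genes. Members had a median log2 fold change of 0.25, beside 0.01 for all genes. DESeq2 called 28 higher and 3 lower, beside 3.06% and 1.31% of all genes. In 19 members every restricted library lay above every control and in 6 below, beside 2.92% and 4.74% of all genes.

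ENSBTAG00000004720 had 71.7, 66.9 and 51.7 CPM in control and 160 to 210 CPM in restricted parenchyma, with unlimited libraries at 105 to 275 CPM. ENSBTAG00000020679 had 37.4, 42.9 and 32.9 CPM in control and 74.4 to 120 CPM in restricted parenchyma. Both were free of overlap between the diets. ENSBTAG00000044194 had 129, 129 and 138 CPM in control and 49.0 to 83.6 CPM in restricted parenchyma. ENSBTAG00000021048 had 223, 280 and 242 CPM in control and 38.6 to 87.3 CPM in restricted parenchyma, and its log2 difference was -2.06 ± 0.29 (SE). In both, the controls lay above every restricted library. Without control 21 the last 3 of these no longer met the edgeR rule, with log2 differences of 1.41, -1.06 and -2.10 in place of 1.51, -1.08 and -2.06. The count of higher members was 1 without control 21, 3 without control 18 or 19, 3 without restricted 5, 2 without restricted 4, 13 or 16, and 14 without restricted 8. That of lower members was 0 without control 21 or restricted 4, 5, 13 or 16, and 5 without restricted 8. Shares of all genes were not computed with these libraries left out, so the changes are not read as particular to the members.

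Across the 3 diets the order of the parenchyma means was mixed. The mean was highest in restricted parenchyma for 74 members, in unlimited for 73 and in control for 53. It was lowest in control for 89, in unlimited for 84 and in restricted for 27, the group that chose the members. The spread within a diet was moderate, with a median coefficient of variation of 32.1% in control, 33.8% in restricted and 28.7% in unlimited parenchyma. In fat pad it was 58.1% in restricted and 84.5% in unlimited calves. The median of the member means was 3.66 and 4.48 CPM there, against 40.9 and 38.9 CPM in restricted and unlimited parenchyma. Unlimited fat pad also includes number 11, where the members summed to 16974 CPM against at most 6091 CPM in the others. What part the low levels or this library had in the spread was not tested.

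In fat pad the members were low and uneven. They summed to 2465 to 6199 CPM in restricted libraries, and in unlimited libraries to 2497 to 6091 CPM in 5 and to 16974 CPM in number 11. Number 11 was the highest of its group for 158 of 200 members, and the share of all genes highest there was not computed. It held 3488 CPM of ENSBTAG00000015980 against 372 to 720 CPM in the others. Its sum of fat pad genes, 13609 CPM, lay within the group's 12315 to 16270 CPM. Between unlimited and restricted fat pad, 0 of 161 members tested met the edgeR rule, as did 0% of 15203 genes. An unadjusted p under 0.05 was found for 8 members and for 8.66% of all genes. DESeq2 called 0 members, and 0.00659% of all genes higher and 0.0132% lower. Fitted log2 fold changes had a median of 0.30, beside 0.00 for all genes, and were positive in 121 members. The choice kept genes low in restricted fat pad, so nothing is read from these counts, and 39 members had too few reads to be included.

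The libraries labelled fat pad control differed from the other fat pad libraries and from each other. The members summed to 50660 CPM in number 1, 42147 CPM in number 2, 32304 CPM in number 21 and 3041 CPM in number 18. Numbers 1, 2 and 21 lay above the whole range of restricted and unlimited fat pad for 187, 185 and 163 members, and number 18 for 42. Within the range of the parenchyma libraries lay 173, 179, 115 and 34 members, in the order 1, 2, 21 and 18. Both ranges include restricted libraries, and the choice kept genes low in restricted fat pad, which favours values above the fat pad range. Shares over all genes were not computed for these counts, so they are not read as particular to the members. The fat pad genes summed to 79.8, 104, 136 and 1664 CPM in numbers 1, 2, 21 and 18, so that all 4 were far below the 11519 CPM of the lowest restricted fat pad library. With these libraries taken as labelled, control parenchyma exceeded control fat pad by a median of 1.28 times, and 1 of 200 members reached 4 times. Against control liver, the ratio had a median of 32.4, and 193 members reached 4 times.

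Set against these labelled controls, 105 members passed the count filter in unlimited fat pad alone and in the controls alone. Of these, 82 were lower in unlimited fat pad and 0 higher by edgeR, with a median log2 fold change of -2.66. Over the 15441 genes tested, 13.7% were lower and 13.8% higher, 27.5% in all. Of the 12500 genes that passed in both groups, 14.8% were lower. ENSBTAG00000053310 had 27.6, 16.8, 15.3 and 14.5 CPM in controls 1, 2, 18 and 21 and 0.946 to 1.73 CPM in unlimited fat pad, and its log2 fold change was -4.08 ± 0.29 (SE, edgeR adjusted p = 1.29e-05). ENSBTAG00000020573 had 57.6 to 103 CPM in the 4 labelled controls and at most 10.5 CPM in unlimited fat pad, and its log2 fold change was -3.89 ± 0.42 (SE, edgeR adjusted p = 0.000152). Over all members that entered the test, 134 were lower, and 48 without the PAR-titled libraries 1 and 2. Both counts take members whether or not they passed the filter in each group alone. In the main fit 90 of those tested did not, which leaves little room for their direction. The share of all genes was not computed without libraries 1 and 2. Diet and the difference between the labelled controls and other fat pad cannot be told apart here.

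In liver the members were scarce under every diet, summing to 1293 to 1880 CPM. The mean was under 1 CPM for 116 members in restricted and 99 in unlimited liver, and 29 members had 10 CPM or more in unlimited liver. No liver library held a read of 9 members. Restricted liver helped to choose the members, so the comparison with it is a description. Between unlimited and restricted liver, 0 of 97 members tested met the edgeR rule, beside 0% of 14030 genes higher and 0.0143% lower. An unadjusted p under 0.05 was found for 20 members and for 14.1% of all genes. DESeq2 called 1 member higher and 1 lower, beside 0.812% and 2.17% of all genes. The other 103 members had too few liver reads to be included.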

How the data were processed

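The authors deposited HTSeq read counts per Ensembl gene for each library, followed by 5 summary entries, which stayed out of totals and tests. STAR 2.7.8, HTSeq 1.99.2, FastQC, DESeq2 and the build ARS-UCD1.2 are named per the submitters' processing notes. How strand and multi-reads were handled is not given in the sources used here, and overlapping genes and near-identical copies are uncertain. Reads assigned to genes made up 21.7% to 46.4% of uniquely placed reads. Of 48 labelled samples 47 were used, and the parenchyma control numbered 2, titled PAD, was not analysed here. Groups follow the tissue and diet labels. P-values measure the spread between these libraries, which may be technical.

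CPM used the sum of gene counts. Each comparison was fitted on its 2 groups with edgeR 4.0.16 in R 4.3.3 (TMM, filterByExpr with minimum count 10 and minimum total 15, robust quasi-likelihood F test), with Benjamini-Hochberg adjustment over every gene tested and calls at an adjusted p under 0.05. In comparisons between tissues and with the labelled fat pad controls, the main counts are given for members that passed filterByExpr in each group alone. Counts over all members that entered a test, and shares under alternatives or left-out libraries, do not use this rule. Named members are the 2 called members of lowest p in each direction. That rule was written for unlimited against control parenchyma and was carried over to the other comparisons. Alternatives were DESeq2 1.42.0, no low-count filter, other covariates, left-out libraries, a replicate block and other sizes of the list. The tests were first checked on simulated data. The members and lists were chosen with earlier results of these data known. Marker lists and promoter motifs needed gene names and were not run.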

Additional observations from a re-analysis of the deposited data

Results flagged for a closer look

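In 44 sets of values by group, 5 had a library far from the others, by the size of its gap relative to the range of its group, and chance gives about 1 in 20. The members summed to 16974 CPM in fat pad unlimited 11, against 2497 to 6091 CPM in the other 5 libraries of the group. In the same library ENSBTAG00000013779 had 28.2 CPM, against 11.1 to 15.4 CPM in the others. In parenchyma restricted 10 the members summed to 66151 CPM, against 37946 to 44027 CPM. The fat pad genes summed to 1664 CPM in the library labelled fat pad control 18, against 79.8 to 136 CPM in the other 3 so labelled. ENSBTAG00000044194 had 83.6 CPM in parenchyma restricted 8, against 49.0 to 61.6 CPM in the other 5. The causes were not tested.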

How the results depend on the processing

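Shares are percent of the 200 members, whether or not they passed the count filter in each group alone. For covariate fits and left-out libraries, shares over all genes were not computed. Of 89 alternatives for the counts other than leaving out 1 library, 75 stayed within 1.5 times. With the fat pad gene sum as a covariate, unlimited against control parenchyma gave 6% higher and 0.5% lower, unlimited against restricted 4% and 4.5%, and restricted against control 1% and 0%. With the assigned share as a covariate, unlimited against restricted gave 6% higher and 5% lower, and restricted against control 4.5% higher. DESeq2 gave 12.5% lower for unlimited against restricted and 14% higher for restricted against control in parenchyma, and 0.5% in each direction in liver. Over all genes DESeq2 called 3.06% higher for restricted against control parenchyma, and 0.812% higher and 2.17% lower in liver. For unlimited against restricted parenchyma that share was not computed, so the 12.5% is not read as particular to the members. Without the PAR-titled libraries, 24% were lower in unlimited than in labelled control fat pad. The causes were not tested.

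Leaving out 1 library at a time gave 99% to 99.5% higher in parenchyma than fat pad, 94.5% to 97.5% higher than in liver, and 0% lower in both. These shares include members, 90 and 125 in the main fits, that did not pass the count filter within fat pad or liver alone. Little room was left for their direction, so the shares are no further support. With every library in, 30.3% and 32.4% of all genes tested were higher. In parenchyma, it gave 16.5% to 26% higher and 7.5% to 11.5% lower for unlimited against control, 6% to 20.5% and 6.5% to 10% for unlimited against restricted, and 0.5% to 7% and 0% to 2.5% for restricted against control. Unlimited fat pad had 45% to 89.5% lower and 0% higher than the labelled controls. This range, too, takes members whether or not they passed the filter in each group alone. With every library in, 13.7% of all genes tested were lower. Unlimited against restricted stayed at 0% in fat pad and liver. The summed level of unlimited minus control parenchyma was 14645 to 19919 CPM.

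A replicate block gave 99.5% higher against fat pad and 97% against liver. These shares, too, include members that did not pass the count filter within fat pad or liver alone, with little room for their direction. No share over all genes was computed from the blocked fits, so they are no further support. Same-numbered libraries deviated together with r of 0.0804 to 0.179 and 0.0998 to 0.197, each highest with its own number, but not all above 0.1, and the labels do not tie numbers to calves. Of 262 alternatives for named members, 248 kept the call, 14 lost it, in 4 members, and 0 reversed. With the fat pad covariate the edgeR adjusted p was 0.111 for ENSBTAG00000048972, 0.066 for ENSBTAG00000044194 and 0.0704 for ENSBTAG00000021048, with log2 fold changes of -1.21, -1.02 and -2.04. Reads of 103 members in liver and 39 in fat pad were too few for the comparison of unlimited with restricted calves.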
